A study of Hordeum vulgare with 4 samples.

Results

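In barley (Hordeum vulgare) callus, the cultivars Golden Promise (GP) and D91 differed reciprocally in isoforms counted for 98 assembled genes. Of all 61598 genes 7694 had several isoforms and could qualify, and some of the 98 also had isoforms counted in both cultivars. Each of the 98 genes had an isoform with at least 10 estimated counts in both GP libraries and 0 in both D91 libraries. Such an isoform is called GP-specific here. Each also had another isoform with at least 10 counts in both D91 libraries and 0 in both GP libraries, called D91-specific. Both kinds occurred in 104 genes, and 6 of these were left out because their summed counts, scaled to library size as CPM, differed over 3-fold between the cultivars. The members were therefore chosen on the isoform counts and totals of the same 4 libraries, and the values that chose them are given as a description.

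Callus is undifferentiated tissue grown in culture, from which plants can be regenerated. The labels name 2 libraries of GP, a cultivar widely used in barley transformation, and 2 of D91 (DWR91), and the series title contrasts cultivars for regeneration in vitro. All calli were 31 days old, after 28 days in the dark on a medium named BCIM and 3 days of indirect light on one named BRM, and no label gives another treatment. The labels do not say whether replicates came from separate cultures, so the spread between them may be technical. Estimated counts summed to 1825505 and 1737140 in the GP libraries and to 1743621 and 3443040 in the D91 libraries.

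A plant gene can give several transcripts by alternative splicing or by different start and end points. In a Trinity assembly an isoform is a path through the sequence graph of a gene. Transcripts that differ by splicing, by their ends or by sequence variants between cultivars can therefore all be listed as isoforms of a gene. Whether a given pair was of any of these kinds, and of which, could not be read from the count tables. No isoform sequence was analysed here. The identifiers carry no gene names, and 0 of the 98 matched the 58438 entries of the barley reference table, so the members are described by their identifiers and behaviour and no pathway or cell type marker could be assigned.

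Genes with a single isoform made up 53904 of the 61598 genes, and a further 7694 had several. Of those with several, 5531 had at least 10 summed counts in every library, and the 98 members were 1.77% of them. A GP-specific isoform was found in 325 genes with several isoforms and a D91-specific one in 317. The 104 genes with both were 32.0% of the first set and 32.8% of the second. Over all 75397 isoforms, 0.728% (549) met the GP-specific condition and 0.618% (466) the D91-specific condition. The 98 members lay at 98 different loci of the assembly, and their locus numbers ran between 1801 and 33306 with a median gap of 189.

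The 6 members described first are those in which the smallest of the 4 counts required by the rule was highest, from 270 to 880. TRINITY_GG_7830_c0_g1 had 895 and 880 counts of isoform i5 in the GP libraries, against 0 and 0 in the D91 libraries. Its isoform i3 had 0 and 0 counts in the GP libraries and 1310 and 1498 in the D91 libraries. Both libraries of each cultivar thus carried 1 of these 2 isoforms and lacked the other. The gene as a whole stood at 511 ± 9.97 CPM in GP and 600 ± 225 CPM in D91 (SD, n = 2 each), and the GP values lay inside the range of the D91 values.

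In TRINITY_GG_17774_c0_g1, isoform i4 had 574 and 517 counts in GP and 0 and 0 in D91, while i2 had 0 and 0 in GP and 523 and 1070 in D91. In TRINITY_GG_33306_c0_g1, isoform i2 had 368 and 302 counts in GP and 0 and 0 in D91, while i1 had 0 and 0 in GP and 270 and 403 in D91. The ratio of mean total CPM, GP over D91, was 1.36 in the first of these genes and 1.38 in the other. In each of them both GP totals lay above both D91 totals. In TRINITY_GG_31914_c0_g1, isoform i1 had 273 and 273 counts in GP and 0 and 0 in D91, while i4 had 0 and 0 in GP and 594 and 437 in D91. Its total was 180 ± 16.6 CPM in GP and 253 ± 141 CPM in D91 (SD, n = 2 each), with overlapping libraries. This gene also had an isoform common to both cultivars, i6, with 34 and 54 counts in GP and 11 and 43 in D91.

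In the other 2 of the 6 genes both D91 totals lay above both GP totals. Totals without overlap between the cultivars were common, at 65.7% of the 18035 genes tested below. TRINITY_GG_17273_c0_g1 consisted of 2 isoforms, i1 with 553 and 485 counts in GP and 0 and 0 in D91, and i2 with 0 and 0 in GP and 1726 and 2288 in D91. Its total was 291 ± 16.8 CPM in GP and 827 ± 230 CPM in D91 (SD, n = 2 each). In TRINITY_GG_4414_c0_g1, isoform i2 had 405 and 307 counts in GP and 0 and 0 in D91, and i4 had 0 and 0 in GP and 801 and 1072 in D91. Its total was 201 ± 34.2 CPM in GP and 392 ± 105 CPM in D91 (SD, n = 2 each).

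**Figure D1:**
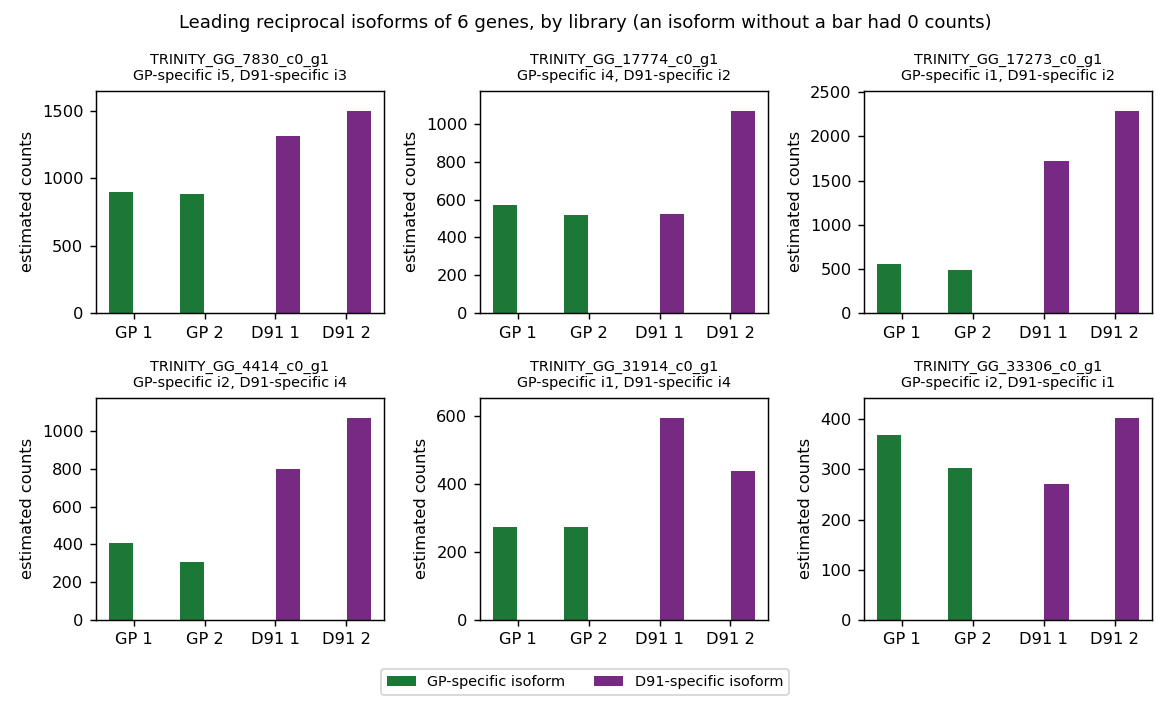
Estimated counts (vertical axis) of the leading GP-specific and D91-specific isoform in each of the 4 libraries, for the 6 members with the highest smallest count. The GP-specific bars stand in the GP libraries alone and the D91-specific bars in the D91 libraries alone, which is the pattern the members were chosen for. The bars are not scaled to library size, and D91 replicate 2 was the deepest library, with 3443040 counts.

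The depth of its gene limits how firmly an isoform can be called absent. A count of 0 allows up to 3 counts, for counting error only, since reads are not independent molecules. For TRINITY_GG_7830_c0_g1 this is a share of up to 0.227% and 0.198% of the gene's counts for the GP-specific isoform in the D91 libraries, and of up to 0.326% and 0.334% for the D91-specific isoform in the GP libraries. Over all members, the less deep D91 library allowed the GP-specific isoform between 0.174% and 23.1% of the gene, with a median of 4.0%. The less deep GP library allowed the D91-specific isoform between 0.334% and 30%, with a median of 4.92%. In 44 members every such limit was under 5%, and in 22 at least 1 limit was above 10%.

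Set against a floor of 3 counts per library, every leading GP-specific isoform was at least 4.97-fold higher in GP than in D91. The median of these bounds was 21.1 and the highest 385. Every leading D91-specific isoform was at least 2.56-fold higher in D91, where the bounds had a median of 19.7 and reached 491. The rule asks for at least 10 counts in a cultivar and no counts in the other. That every bound showed a difference therefore follows from the choice of members, and only the size of the bounds is described. The bounds also take the higher counts as exact, with no allowance for their counting error. The smallest of the 4 counts that the rule requires to reach 10 had a median of 37 over the members. It was at least 100 in 17 members and between 10 and 19 in 18. At the edge of the rule, 3 members had a smallest count of exactly 10, and 5 genes just outside had 9. On the 3-fold limit, the widest member stood at 2.87-fold and the narrowest gene left out at 3.20-fold.

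The 98 members held 109 GP-specific and 105 D91-specific isoforms. Of these 107 and 102 entered an edgeR quasi-likelihood test of all isoforms, and 104 and 98 passed it at an adjusted p under 0.05, higher in GP and in D91. Among all 20632 tested isoforms 4.62% passed as higher in GP and 4.88% as higher in D91. The rule used this contrast, so the calls are no support for the members. When GP replicate 1 was left out, edgeR passed 0 isoforms of the whole table, with 3835 under an unadjusted p of 0.05. When GP replicate 2 was left out it passed 0 (3314 unadjusted), and with the replicate numbers as a block 0 (5000 unadjusted).

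How much of a gene the exchange took in depended on its number of isoforms. A member with exactly 2 isoforms has all its counts in the reciprocal pair by the rule itself, which holds for 42 members. In the 56 members with 3 or more isoforms the share was free to vary. Their GP-specific isoforms held a median of 89.7% of the gene in GP, with quartiles of 59.7% and 97.7%, and their D91-specific isoforms a median of 88.0% in D91, with quartiles of 71.4% and 96.5%. In 19 of the 56 each kind held at least 90% in its own cultivar, which with the 42 makes 61 members.

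Replicates of a cultivar could differ in this share. Over the 56 members, the shares of the replicates differed by a median of 2.92 percentage points in GP and 7.29 in D91. They were over 10 points apart in 12 members in GP and in 20 in D91, with the widest gaps at 44.1 and 42.2 points.

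In the other members with 3 or more isoforms the exchange was partial. The specific isoforms reached 90% in GP alone in 9 members, in D91 alone in 6 and in neither in 22. In 8 members they held under 50% of the gene in both cultivars. The member with the least had 9.67% of its counts in the GP-specific isoform in GP and 5.26% in the D91-specific isoform in D91.

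**Figure D2:**
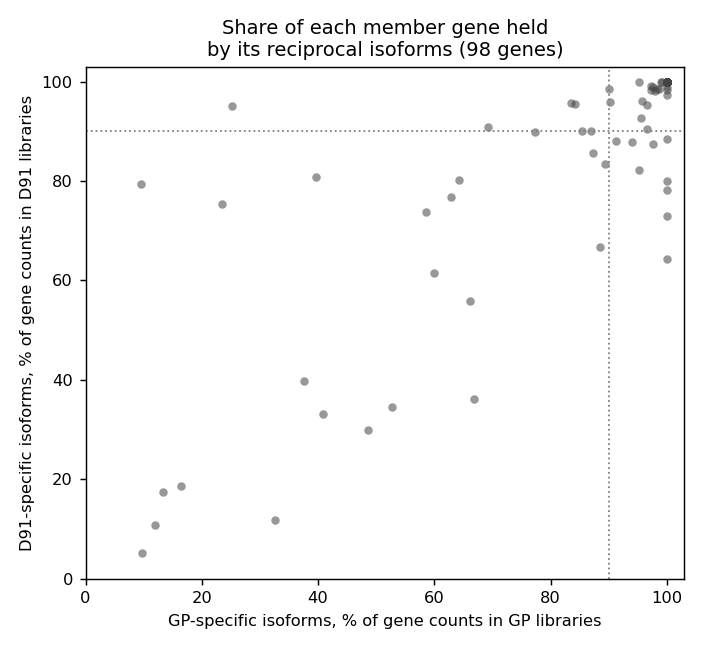
Each point is 1 of the 98 members. The horizontal axis is the percentage of the gene's counts in the GP libraries that fell on GP-specific isoforms, the vertical axis the percentage in the D91 libraries that fell on D91-specific isoforms, and dotted lines mark 90%; 61 members lie at or above both lines, 42 of them at 100% by the rule because they have exactly 2 isoforms, and 8 lie under 50% on both axes.

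Besides the reciprocal isoforms, the members had 135 other isoforms, in 55 genes. Of these, 80 had counts in both cultivars, 21 had counts in GP and none in D91, 24 had counts in D91 and none in GP, and 10 had no counts. In 14 members another isoform had at least 10 counts in all 4 libraries. The gene was thus also read through a transcript common to both cultivars in those cases. The largest member had 11 isoforms.

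Several members had more than 1 specific isoform per cultivar. There were 11 members with 2 GP-specific isoforms, 7 with 2 D91-specific isoforms and 3 with 2 of both. In TRINITY_GG_7830_c0_g1 a minor isoform accompanied the leading one in each cultivar. These were i6, with 24 and 18 counts in GP and 0 and 0 in D91, and i1, with 0 and 0 in GP and 9 and 18 in D91.

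The 2 isoforms of a pair had nearly the same length. Relative length was taken as counts divided by the deposited length-corrected signal and put on 1 scale over 13572 isoforms with at least 10 counts in every library; between GP replicate 1 and D91 replicate 2 the ratio of this measure lay between 0.997 and 1.02 for the central 90% of those isoforms. It follows effective length, so it is a ratio and not a length in bases. It is not part of the rule, although it needs counts to be measured.

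The GP-specific isoform was 0.996 times as long as the D91-specific one at the median, with quartiles of 0.988 and 1.01. The lengths lay within 1.02 times of each other in 63 members, within 1.05 times in 85 and within 1.1 times in 88. The last is 89.8% of the members, against 39.5% of 3776 other genes with several isoforms and at least 10 summed counts in every library, whose 2 most abundant isoforms with at least 10 counts in a library were compared. The median absolute log2 length ratio was 0.02 in the members and 0.21 in the other genes. With exactly 2 isoforms the shares were 97.6% of 42 members and 43.1% of 1651 other genes. No test was made of these shares, since genes are not replicates.

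**Figure D3:**
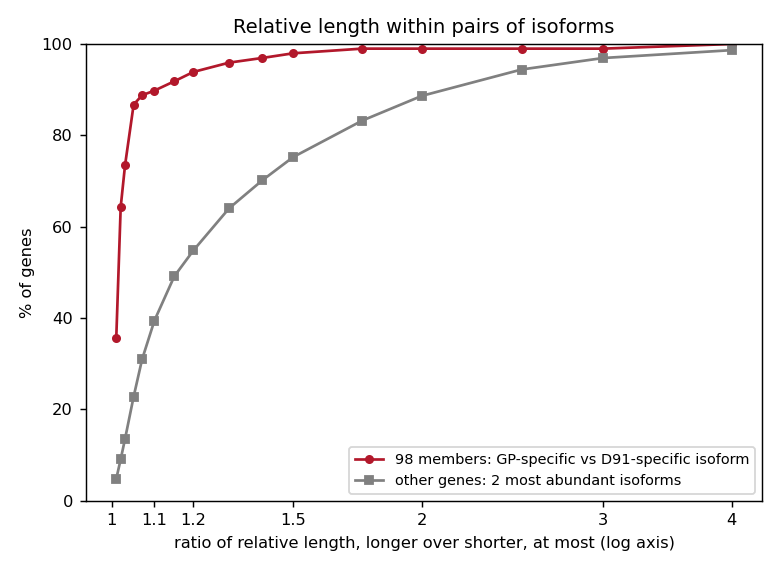
Percentage of genes (vertical axis) whose 2 isoforms differ in relative length by no more than the ratio on the horizontal axis (log scale, longer over shorter). The red line is the pair of leading reciprocal isoforms in the 98 members and the grey line the 2 most abundant isoforms of 3776 other genes; at a ratio of 1.1 the lines stand at 89.8% and 39.5%.

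Genes with a cultivar-specific isoform on 1 side lay between these values. In 177 genes with a GP-specific but no D91-specific isoform, that isoform was within 1.1 times of the most abundant other isoform in 52.5%. In 182 genes with a D91-specific but no GP-specific isoform the share was 53.8%. A comparison inside the members used their other isoforms. In 39 members with another isoform of at least 10 counts in a library, the GP-specific isoform lay within 1.1 times of the D91-specific one in 32 and within 1.1 times of the most abundant other isoform in 11.

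TRINITY_GG_7830_c0_g1 and TRINITY_GG_17774_c0_g1 had close relative lengths for a further pair of isoforms too. In TRINITY_GG_7830_c0_g1, relative to the longest isoform, the leading isoforms stood at 1.0 (i5, GP) and 0.994 (i3, D91), and the minor ones at 0.787 (i6, GP) and 0.779 (i1, D91). In TRINITY_GG_17774_c0_g1, the leading isoforms stood at 0.954 (i4, GP) and 0.941 (i2, D91), and the minor ones at 1.0 (i1, GP) and 0.986 (i3, D91). By these values each cultivar had a longer and a shorter form of these genes, though in TRINITY_GG_17774_c0_g1 they differed little in length. The minor isoforms of that gene were unequal, with 236 and 179 counts of i1 in GP and 8 and 18 of i3 in D91. In TRINITY_GG_7830_c0_g1 the minor D91 isoform had 9 and 18 counts. The relative lengths of both minor D91 isoforms are therefore uncertain.

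In 10 members the pair differed by more than 1.1 times. Of these 9 had 3 or more isoforms, and their reciprocal isoforms held a median of 43.0% of the gene's counts over all libraries, against 89.9% in the 47 members with 3 or more isoforms and a pair within 1.1 times. The extremes were a pair in which the GP-specific isoform was 0.604 times as long as the D91-specific one and another in which it was 3.54 times as long. These extremes were picked after their values were seen.

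The totals of the members were spread over both directions. The rule removed totals over 3-fold apart, so the following is a description, and in bulk tissue fewer cells of a type and less RNA per cell cannot be told apart. The ratio of mean CPM, GP over D91, lay within 2-fold in 86.7% of members (85) and within 1.5-fold in 59.2% (58), against 85.8% and 61.9% of the 15699 tested genes within 3-fold. The median absolute log2 CPM difference between cultivars was 0.50 in the members, 0.42 in the tested genes within 3-fold and 0.51 in all tested genes. Between replicates the members' median was 0.20 in GP and 0.29 in D91, against 0.24 and 0.34 in all tested genes. The CPM of GP and D91 libraries did not overlap in 66 members (67.3%), against 65.7% of the 18035 tested genes.

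In an edgeR quasi-likelihood test of summed counts over all genes, 4 members passed as higher in GP and 14 as higher in D91 at an adjusted p under 0.05. Of all tested genes 9.16% passed as higher in GP and 10.1% as higher in D91. With library totals in place of TMM scaling, which moved the median of all genes by 0.11 on the log2 scale, 7 members passed as higher in GP and 13 as higher in D91, and over all genes 1998 and 1491 passed in place of 1652 and 1813. These calls depended on single libraries, in the members and in all tested genes alike. In both sets fewer passed when either GP replicate was left out, and more when either D91 replicate was. Such a fit leaves a cultivar with 1 library. Relative to the median difference of all tested genes, 39 members lay above and 59 below. The same split with library totals is no second result, since a change of scaling moves that median along with the members.

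The widest totals are given for their size. TRINITY_GG_26596_c0_g1 stood at 86.6 and 72.0 CPM in GP and 29.8 and 25.6 CPM in D91, a ratio of 2.86. TRINITY_GG_9012_c0_g1 stood at 78.9 and 85.2 CPM in GP and 30.4 and 35.1 CPM in D91, a ratio of 2.5. In both genes the GP libraries were above the D91 libraries. TRINITY_GG_2193_c0_g1 stood at 18.6 and 17.8 CPM in GP and 82.0 and 22.7 CPM in D91, a ratio of 0.348, and D91 replicate 1 made most of that difference. A leading isoform of this gene shared its 4 counts with another isoform of the assembly, which leaves its values uncertain. TRINITY_GG_17273_c0_g1, described above, had the next lowest ratio, 0.352.

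**Figure D4:**
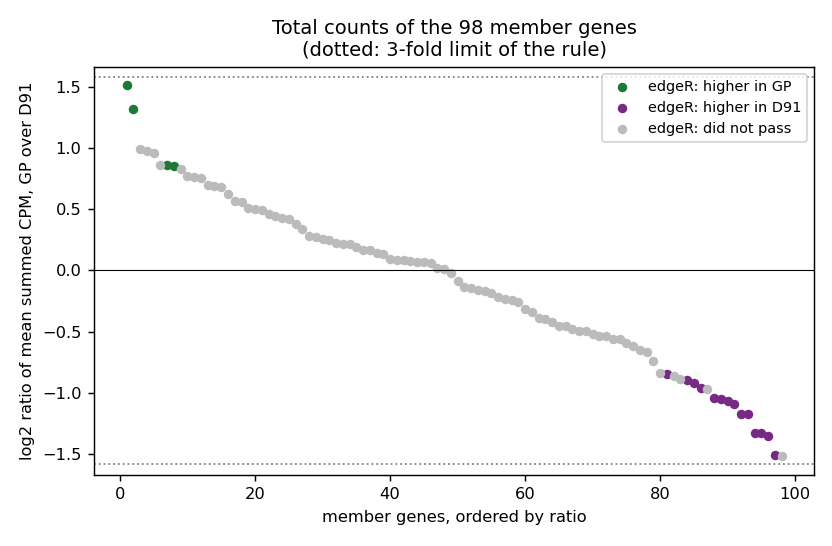
Log2 ratio of mean summed CPM, GP over D91 (vertical axis), of the 98 members in descending order, coloured by the edgeR call on total counts. Dotted lines mark the 3-fold limit of the rule; 48 members lie above 0 and 50 below, and the 4 and 14 called members lie toward the ends.

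Per length, the isoforms of a pair stood within 2-fold of each other in 79 of 98 members. The rule bears on this number, since it removed gene totals over 3-fold apart. In the 42 members with exactly 2 isoforms the pair makes up the whole gene. The closeness of the levels is therefore a description and follows in part from the choice of members. The deposited signal, TPM scaled by a TMM factor, of the leading GP-specific isoform in GP ranged from 2.37 to 435 with a median of 16.9. That of the leading D91-specific isoform in D91 ranged from 2.08 to 764 with a median of 24.2. The highest pair by the GP-specific isoform was at 453 and 418 in GP, against 413 and 462 for its D91-specific isoform in D91. The median log2 ratio of the GP-specific to the D91-specific isoform was -0.34, against -0.08 over 18098 tested isoforms with signal in every library. Relative to that median 39 pairs were higher for the GP-specific isoform and 59 for the D91-specific one. This is no second result beside the same split of the gene totals. The reciprocal isoforms held a median of 98.5% of a member's counts, so both splits rest on nearly the same counts.

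**Figure D5:**
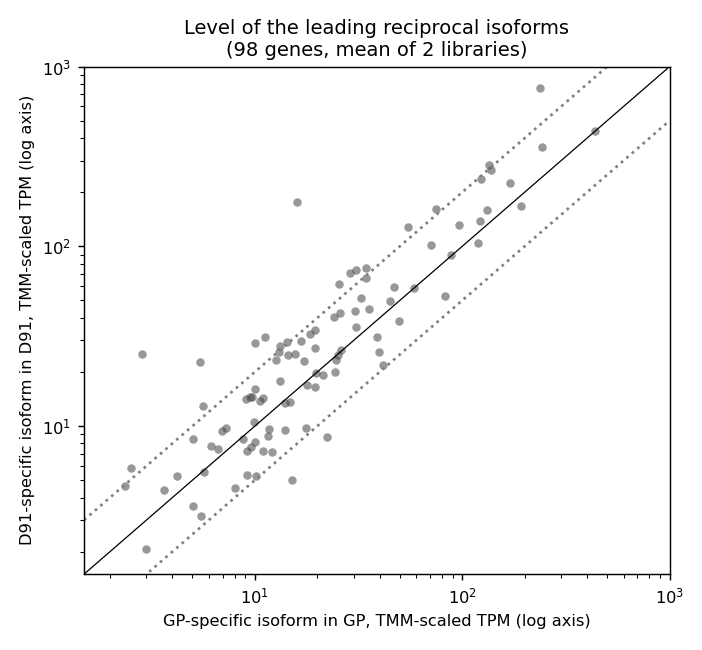
Mean deposited TMM-scaled TPM of the leading GP-specific isoform in the 2 GP libraries (horizontal, log axis) and of the leading D91-specific isoform in the 2 D91 libraries (vertical, log axis), 1 point for each of the 98 members. The solid line marks equal levels and the dotted lines a 2-fold difference. Between the dotted lines lie 79 pairs, a number on which the rule's 3-fold limit on gene totals bears.

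The spread between replicates was taken from CPM. The median absolute log2 CPM ratio between replicates was 0.22 for the leading GP-specific isoforms in GP and 0.35 for the leading D91-specific isoforms in D91. Replicates were over 2-fold apart for 5 and 11 of the 98 isoforms. The wider spread in D91 was not particular to these isoforms. For gene totals the median over all tested genes was also larger in D91 (0.34) than in GP (0.24).

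The counts of isoforms are estimates that divide shared reads. The counts of both leading isoforms were whole numbers, within 0.005, in 30 members, and in the others at least 1 estimate was fractional. In 17 members the 4 rounded counts of a leading isoform were identical to those of some other isoform of the assembly, which leaves them uncertain. The rule fixes both counts in the other cultivar at 0, so small counts can also coincide, and why they were identical was not tested. Without them 81 members were left, of which 74 pairs lay within 1.1 times in length. Whether reads shared between isoforms or copies bear on the zeros was not tested.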

How the data were processed

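Messenger RNA of 4 callus libraries was analysed, 2 of GP and 2 of D91, grouped by the labels' titles. Per the submitters' processing notes, the tools were STAR, RSEM and DESeq2, with no version. No source used here gives the genome build or the assembly settings. In the isoform table the authors deposited an estimated count (expected count) per isoform, with no normalization. The deposited isoform signal is TPM multiplied by 1 TMM factor per library, as the table's values and name show. The 2 deposited gene tables were not used here, since the one named as counts holds scaled values; gene counts were isoform counts summed and rounded. Columns without a mapped sample numbered 0.

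Isoform counts were rounded, and CPM used column totals for the rule and the ratios. Log2 CPM used TMM factors and a prior count of 2. Tests used edgeR 4.0.16 in R 4.3.3 (filterByExpr, TMM, cultivar only, quasi-likelihood F-test, Benjamini-Hochberg adjusted p under 0.05). With 2 libraries against 2 a permutation test of a single value cannot go below p = 0.333, so none was made. Alternatives were other thresholds of the rule, RLE factors, library totals, no filter, DESeq2 1.42.0, a replicate block and leaving out each library; those on length, on the 90% share and on shared counts were added after seeing the data. Named were the 6 members with the highest smallest count and the 2 with the highest and lowest total ratio. The members and the choices were made with earlier results of these data known.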

Additional observations from a re-analysis of the deposited data

How the results depend on the processing

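Of 75 alternative values 53 stayed within 1.5 times (counts) or within a spread (medians), and 22 did not. That spread was between libraries, except for the median length ratio, where it was the SD between members. The 98 members became 40 with a minimum of 50 counts, 80 with 20 and 129 with 5, and they numbered 126 to 142 with each library left out, with 95 to 97 of the 98 among them. Leaving out a library also loosens the rule by construction. For isoforms in edgeR, 1960 passed with all libraries and 0 to 2950 with each library left out, of them 0 to 193 of the members' isoforms against 202 with all. For gene totals, 3465 passed, 2004 without a filter on low counts and 1780 in DESeq2, and 700 to 6902 with each library left out. For members' totals, 18 passed, 11 without a filter and 11 in DESeq2, and 0 to 41 with each library left out. The replicate block gave no isoform in edgeR (0; 5000 had an unadjusted p under 0.05, and 1925 passed in DESeq2 without a block), hence 0 of the members' isoforms, and 3040 gene totals, 18 of them members. Replicate numbers share no known pairing (r = 0.03 between same-numbered deviations across genes). Without GP replicate 1 and GP replicate 2, 3835 and 3314 isoforms had an unadjusted p under 0.05. The median share held by reciprocal isoforms, fixed at 100% by the rule in the 42 members with exactly 2 isoforms, was 98.5% in counts and 96.9% in the deposited signal, and 98.5% to 99.6% with each library left out. The 88 pairs within 1.1 times in length stayed at 88 with each library left out. The cause of these changes was not tested. Depth limits the statement that an isoform is absent, as given with the floors.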

Other observations

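The loci of the members held 126 other assembled genes, at 57 of the 98 loci, and 41 members were alone at their locus. Of these neighbours 80 had counts in both cultivars and 14 had at least 10 counts in all 4 libraries. No neighbour met, on its summed counts, the condition set for a cultivar-specific isoform (0 specific to GP and 0 to D91). Over all isoforms, rather than genes, 0.728% and 0.618% met these conditions. With 126 neighbours a count of 0 is close to those shares and is no result about the loci. A single pair of members (1) lay at consecutive locus numbers. Members had a median of 45.7 CPM over the 4 libraries, against 32.9 CPM for all genes with several isoforms and at least 10 summed counts in every library, and exactly 2 isoforms in 42.9% against 53.9%. The rule asks members for at least 10 counts in single isoforms, and more isoforms give more ways to meet it. Both differences can therefore follow from how the members were chosen.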
